A study of Mus musculus with 4 samples.

Results

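The immunity-related GTPases (IRG proteins) Irgm1, Irgm2, Igtp, Iigp1, Tgtp1 and Tgtp2 were described in 4 spatial transcriptomes of MC38 tumors. The 6 genes were taken by symbol from the 32285 genes of the count tables, and all 6 were present once. The family was chosen by a readout of these same sections, the level of Iigp1 near the tissue edge, which differed between the host strains. Edge values are therefore given as a description, with no test.

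Spatial expression was measured with 10x Genomics Visium, an assay in which RNA of a tissue section binds to a grid of barcoded spots beneath it. MC38, a colon carcinoma cell line derived from a C57BL/6 mouse, had been injected subcutaneously into female F1 mice aged 8 to 12 weeks. All hosts had a C57BL/6J parent. The other parent was CC075/UncJ for the 2 hosts called CC075F1 and CC080/TauUncJ for the 2 called CC080F1, both Collaborative Cross strains, a panel of recombinant inbred mice bred from a set of founder strains. By the study's classes, CC075F1 responds to anti-PD-1 and CC080F1 does not. Once its tumor measured 75 to 110 mm3, every mouse was given isotype control antibody (200 µg, once) intraperitoneally, and tissue was collected 48 hours after the dose. A tumor from a host thus held C57BL/6-derived tumor cells beside F1 host cells, and a spot usually covered several cells.

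The sections held 2710 and 3276 spots in CC075F1 against 2787 and 3174 in CC080F1, with totals of 82594649 to 146460975 UMIs (unique molecular identifiers, each marking 1 captured RNA molecule). One spot without UMIs in CC075F1 replicate 1 was left out, and the sections shared 1666 spot barcodes, which are grid positions of the slide design. Epithelial markers (Krt8, Krt18, Krt19, Epcam and Cdh1) summed to only 0.860 to 2.64 CPM (UMIs of a gene scaled by the section total) per section, so the carcinoma label rests on the injected line rather than on these markers. CC075F1 replicate 2 stood apart by depth and by 25 spots in which markers of skin, muscle and fat reached 1% of UMIs, against 0 such spots in the other sections. By the study's methods, sections of 4 tissue blocks were placed on a Visium slide, with permeabilization set for each block, and p-values measure the spread between these sections.

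All members were protein-coding, and 5 of the 6 lay in clusters on mouse chromosome 11 (GRCm38, GENCODE vM21). Irgm1 (ENSMUSG00000046879) lay at 48861968 to 48871683, Tgtp1 (ENSMUSG00000078922) at 48985327 to 48994172 and Tgtp2 (ENSMUSG00000078921) at 49057194 to 49064206, all on the minus strand. Igtp (ENSMUSG00000078853) lay at 58199556 to 58207591 and Irgm2 (ENSMUSG00000069874) at 58199618 to 58222782 on the plus strand. These annotated spans overlapped by 7974 bases on the same strand. Iigp1 (ENSMUSG00000054072) lay on chromosome 18 at 60376027 to 60392634. Over the last 600 bases of annotated transcripts, where this assay reads, 100% of the 50-base words of Tgtp2 were also in Tgtp1, and 80.2% of those of Tgtp1 were in Tgtp2 or Gm12185. Counts of Tgtp1 and Tgtp2 are for that reason uncertain and cannot be assigned firmly to either gene. The share was 3.24% for Irgm1 and 0% for Irgm2, Igtp and Iigp1.

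IRG proteins are interferon-inducible GTPases of cell-autonomous immunity. In mouse cells the effector proteins Iigp1 (Irga6) and Tgtp1 and Tgtp2 (Irgb6) load onto the vacuoles of intracellular parasites such as Toxoplasma, while the regulators Irgm1, Irgm2 and Igtp (Irgm3) sit on the cell's own membranes and hold the effectors inactive there. Their genes are switched on by IFN-γ through GAS elements and through interferon-stimulated response elements (ISREs), the latter bound by IRF factors.

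The bases just upstream of the members' starts are shown because these genes share an arrangement of interferon motifs there. Promoters from RefSeq (GRCm38.p6) matched 5 of the 6 members, not Iigp1. The starts used here are those of RefSeq. The runs of Irgm1, Irgm2 and Tgtp1 lie inside the GENCODE spans given above, so the annotations place the starts of these genes differently. Each run below is the 150 bases before the start, 5′ to 3′ on the gene's strand, and capitals mark every match to GAS (TTCNNNGAA) or to an ISRE core (GAAANNGAAA), searched on both strands.
Igtp, chr11:58199406-58199555, plus strand: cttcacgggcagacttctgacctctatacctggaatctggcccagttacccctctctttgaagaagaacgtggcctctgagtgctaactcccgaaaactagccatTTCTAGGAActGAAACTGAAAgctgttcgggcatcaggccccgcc
Irgm2, chr11:58214827-58214976, plus strand: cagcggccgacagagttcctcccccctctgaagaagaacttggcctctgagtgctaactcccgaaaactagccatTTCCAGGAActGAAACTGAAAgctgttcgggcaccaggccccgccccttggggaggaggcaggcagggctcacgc
Tgtp1, chr11:48992247-48992396, minus strand: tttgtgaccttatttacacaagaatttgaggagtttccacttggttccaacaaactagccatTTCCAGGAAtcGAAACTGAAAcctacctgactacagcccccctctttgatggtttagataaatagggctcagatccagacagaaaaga
Tgtp2, chr11:49064213-49064362, minus strand: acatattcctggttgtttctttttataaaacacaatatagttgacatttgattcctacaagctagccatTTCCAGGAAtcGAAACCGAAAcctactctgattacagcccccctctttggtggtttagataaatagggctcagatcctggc
Irgm1, chr11:48871421-48871570, minus strand: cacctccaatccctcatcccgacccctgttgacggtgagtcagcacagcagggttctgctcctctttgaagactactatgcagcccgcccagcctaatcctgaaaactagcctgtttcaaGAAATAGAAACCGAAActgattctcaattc

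In Igtp, Irgm2, Tgtp1 and Tgtp2 a GAS match was followed, 2 bases on, by an ISRE core. Over the 250 bases before the start, a GAS match was present in 7.02% of 32851 promoters and an ISRE core in 2.98%. The 2 motifs in this order and spacing (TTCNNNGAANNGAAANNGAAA) were present in 5 promoters, or 0.0152%, and these were Igtp, Irgm2, Tgtp1, Tgtp2 and Gm12185, another gene of the family's clusters. The spacing was chosen after the 4 members' sequences had been seen, and related genes share sequence by descent. Irgm1 held 2 overlapping ISRE cores and no GAS match. A match is a string of letters and does not show that a factor was bound.

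The summed level of Igtp was 91.1 and 78.6 CPM in CC075F1 (replicates 1 and 2) against 33.5 and 62.0 CPM in CC080F1. Each CC075F1 section exceeded each CC080F1 section, and the CC080F1 replicates differed from each other well beyond counting error (95% Poisson intervals 32.3 to 34.7 and 60.5 to 63.4 CPM). Fewer cells of a type and less RNA per cell cannot be told apart in such sums. Fitted over all genes in edgeR, the log2 fold change of Igtp in CC075F1 over CC080F1 was 1.13 (SE 0.34, edgeR adjusted p = 0.602), which did not pass the threshold of 0.05. Igtp, or Irgm3, is a regulator that sits largely on the endoplasmic reticulum and lipid droplets.

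For the regulator Irgm1 the levels were 52.5 and 43.7 CPM in CC075F1 against 36.7 and 42.1 CPM in CC080F1. The groups did not overlap, but the closest sections, CC075F1 replicate 2 (interval 42.6 to 44.8 CPM) and CC080F1 replicate 2 (40.9 to 43.3 CPM), had overlapping intervals. The fold change on the log2 scale was 0.60 (SE 0.20, edgeR adjusted p = 0.728). The levels of Irgm2 were 32.8 and 16.5 CPM in CC075F1 against 17.8 and 23.5 CPM in CC080F1. CC075F1 replicate 1 was highest and CC075F1 replicate 2 lowest, so the strains overlapped (log2 fold change 0.49, SE 0.25, edgeR adjusted p = 0.830).

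Among the effectors, Iigp1 had 69.4 and 38.8 CPM in CC075F1 against 27.8 and 37.1 CPM in CC080F1. CC075F1 replicate 1 was far above the rest, while CC075F1 replicate 2 (37.8 to 39.9 CPM) and CC080F1 replicate 2 (35.9 to 38.2 CPM) had overlapping intervals. The log2 fold change of Iigp1 was 0.99 (SE 0.24, edgeR adjusted p = 0.396). Tgtp1 had 70 and 145 UMIs in CC075F1 against 48 and 65 in CC080F1, or 0.848 and 0.990 against 0.513 and 0.577 CPM. Tgtp2 had 2.72 and 2.12 CPM in CC075F1 against 1.91 and 1.52 CPM in CC080F1. Both genes were higher in each CC075F1 section than in either CC080F1 section, with log2 fold changes of 1.11 (SE 0.45) and 0.81 (SE 0.33) and an edgeR adjusted p of 0.830 for each.

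**Figure D1:**
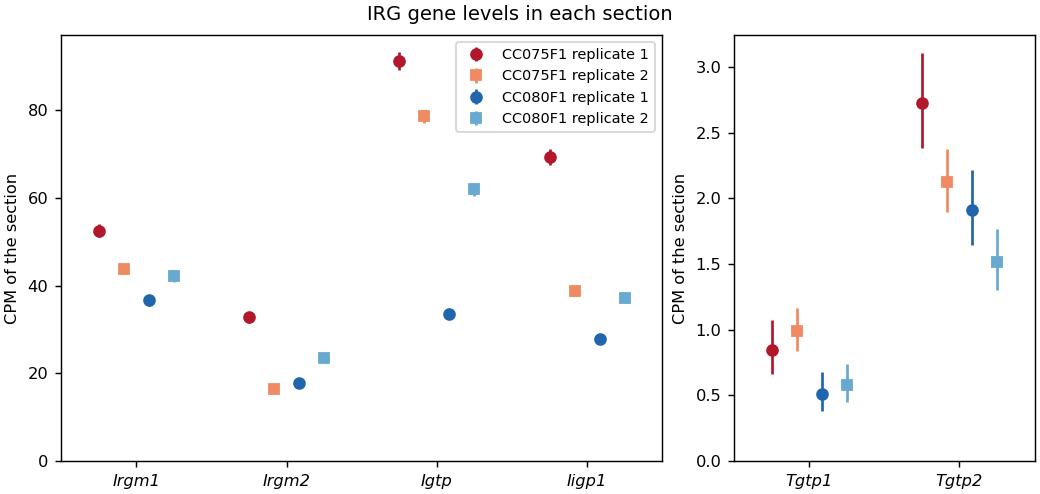
Level of each gene in each section, as CPM of the summed spots, with 95% Poisson intervals that cover counting error alone (left, 4 genes; right, Tgtp1 and Tgtp2 on their own scale). Circles are replicate 1 and squares replicate 2 of each strain; 5 of the 6 genes have no overlap between the strains, and Irgm2 has.

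In all, 0 of the 6 genes were called by edgeR at an adjusted p of 0.05, where 0.0899% of 15572 genes tested did, 0.0578% as higher in CC075F1. All 6 passed the filter on low counts. All 6 fold changes were positive, with a median of 0.90 against −0.02 over all genes tested, and 5 of the 6 had an unadjusted p under 0.05, where 3.19% of all genes had one in this direction. DESeq2 called 1 of the 6, among 194 of all 15572 genes, and limma-voom 0, among 11. In CPM, 5 of the 6 did not overlap between the strains with CC075F1 higher, against 6.63% of all genes. With library size alone as the scaling, the median of all genes moved to −0.31 and the 6 fold changes ran from 0.25 to 0.83. Without CC080F1 replicate 2, which leaves 1 section of that strain, the log2 fold change of Igtp was 1.73. Since the genes were chosen with results of these sections known, these counts are not independent support for a strain difference.

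The share of spots with at least 1 UMI, which also depends on spot depth, followed the levels only in part. Igtp was detected in 84.5% and 83.9% of CC075F1 spots and in 60.7% and 74.4% of CC080F1 spots, with exact 95% intervals no wider than 58.9% to 62.5%. For Iigp1 the shares were 75.3% and 62.8% against 50.6% and 54.5%, and for Irgm1 they were 72.0% and 73.0% against 66.4% and 67.8%. Irgm2 was found in 56.0% and 43.9% of CC075F1 spots and 39.9% and 47.8% of CC080F1 spots, again overlapping. Tgtp1 was found in 1.72% to 4.27% and Tgtp2 in 5.14% to 8.58% of the spots of a section. Each exact permutation test of the 5 genes whose shares did not overlap gave p = 0.33, the smallest that 2 against 2 sections allow, and that of Irgm2 gave 0.667. How often the shares of all genes fail to overlap was not counted, so nothing is read from the 5.

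With every spot thinned to 5000 UMIs, Igtp was found in 36.3% and 29.5% of CC075F1 spots and in 15.3% and 25.8% of CC080F1 spots. The thinned shares of Irgm1 were 23.8% and 18.0% against 16.3% and 18.1%, so its strains overlapped at equal depth. Thinning left out 57 and 24 spots in CC075F1 against 18 and 49 in CC080F1.

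Within the tissue the genes were not spread evenly. In the map of the summed level of Irgm1, Irgm2, Igtp and Iigp1, the highest patches formed a band along the boundary of both CC075F1 sections around a lower core. In CC080F1 replicate 1 the levels were low nearly everywhere with a few small patches, and in CC080F1 replicate 2 patches crossed the interior. Over single spots the 90th percentile of this summed level was 509 and 430 CPM in CC075F1 against 242 and 391 CPM in CC080F1, and the 10th percentile was 65.8 and 33.1 CPM against 23.9 and 27.8 CPM. Both percentiles thus lay higher in each CC075F1 section than in either CC080F1 section, as did the median (213 and 131 against 95.7 and 125 CPM).

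**Figure D2:**
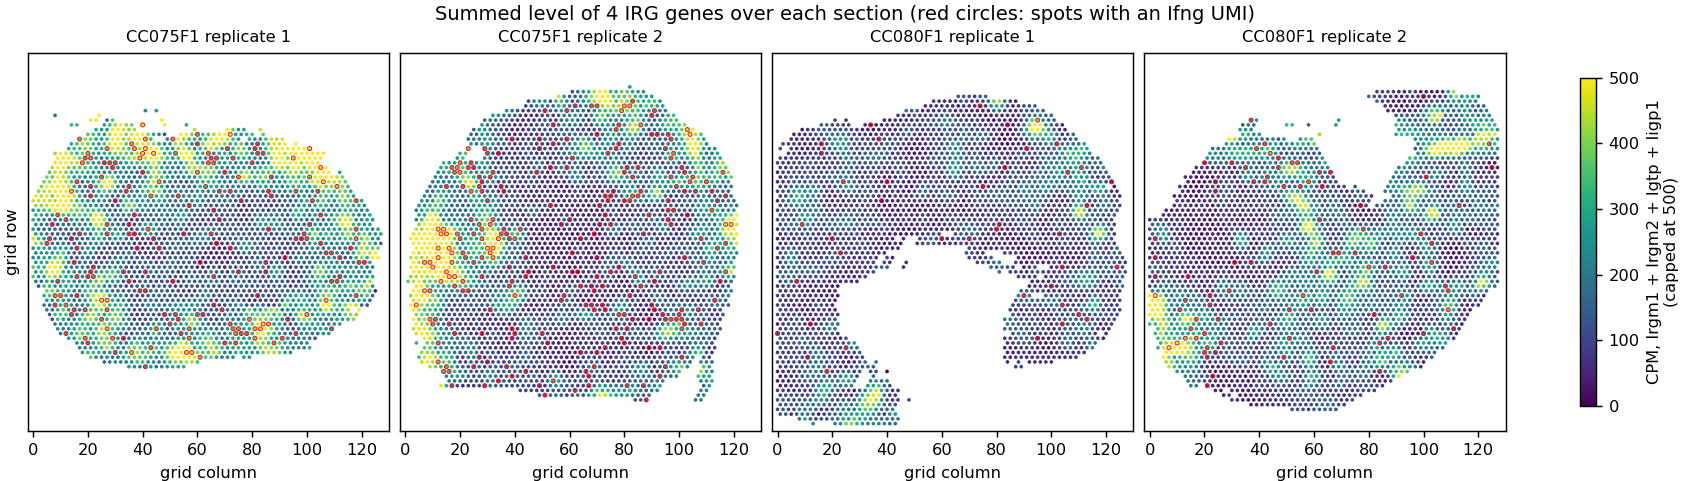
Summed CPM of Irgm1, Irgm2, Igtp and Iigp1 in each spot together with its adjacent spots, drawn at the spots' places on the slide grid (colors capped at 500 CPM); red circles mark spots with an Ifng UMI. High values line the boundary of the CC075F1 sections and lie in scattered patches of the CC080F1 sections.

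Edge spots were those no more than 3 grid steps from a position off tissue, 567 and 665 spots in CC075F1 against 880 and 648 in CC080F1. Iigp1 had 111 and 64.7 CPM at the edge of the CC075F1 sections against 62.8 and 35.0 CPM in the interior, log2 ratios of 0.82 and 0.89. In CC080F1 it had 25.7 and 31.5 CPM at the edge against 28.6 and 38.1 CPM in the interior, log2 ratios of −0.15 and −0.27. The edge thus held more Iigp1 than the interior in each CC075F1 section and less in each CC080F1 section, and the 95% counting interval of each of the 4 ratios lay on 1 side of 0.

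Igtp had 143 and 118 CPM at the edge of CC075F1 against 82.9 and 72.7 CPM inside, and 30.4 and 57.2 CPM at the edge of CC080F1 against 34.7 and 62.9 CPM inside. Its log2 ratios of edge over interior were 0.79 and 0.70 in CC075F1 against −0.19 and −0.14 in CC080F1. The other regulators had the same signs. The ratios were 0.47 and 0.52 against −0.09 and −0.09 for Irgm1, and 0.68 and 0.91 against −0.45 and −0.10 for Irgm2. For Irgm1 in both CC080F1 sections and for Irgm2 in CC080F1 replicate 2 the counting interval included 0.

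The edge ratios of Tgtp2 were 0.71 and 0.32 in CC075F1 against −0.20 and −0.21 in CC080F1, and 3 of these 4 intervals included 0. Tgtp1 rested on 7 to 20 edge UMIs per section, with ratios of 0.09 and 0.10 against −0.83 and −0.64, and all 4 intervals included 0. Restricted to spots that held 10000 or more UMIs and no skin, muscle or fat signal, its CC075F1 mean was −0.09, so its direction there is not settled.

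**Figure D3:**
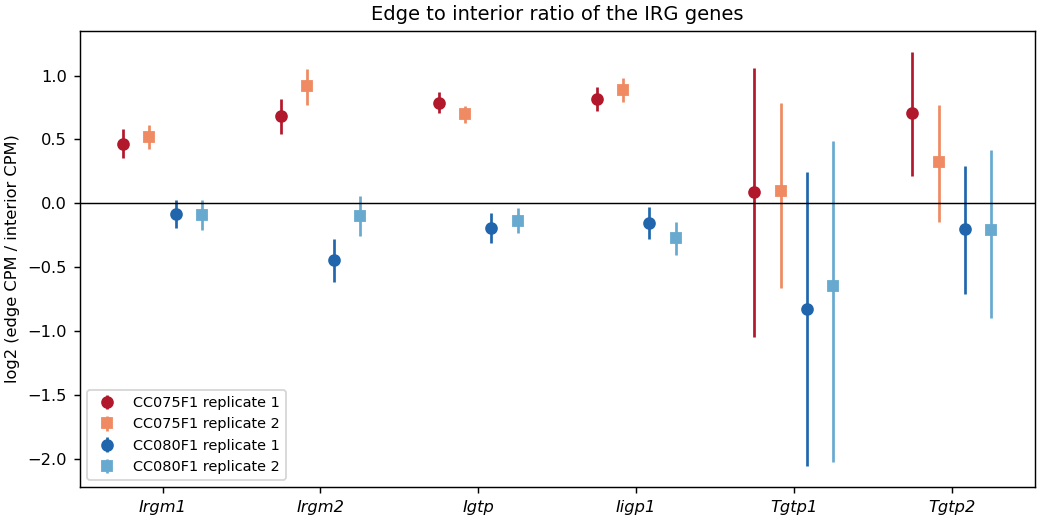
Log2 ratio of edge CPM to interior CPM for each gene in each section, with 95% intervals for counting error alone; the line at 0 marks equal levels. Points of CC075F1 lie above 0 and those of CC080F1 below it for each gene, while the intervals of Tgtp1 and most of those of Tgtp2 cross the line.

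Edge ratios of the 2 strains did not overlap, with CC075F1 higher, for 39.3% of 12257 genes with at least 10 UMIs in each compartment of every section. Ratios above 1 in CC075F1 and below 1 in CC080F1, each in both replicates, were found for 11.7% of these genes, and nothing is read from the members' count against it, since this contrast chose the family. Tgtp1 was not among those 12257 genes. Over them the strain difference of the log2 ratio had a median of 0.12 and a range of −0.21 to 0.70 from the 5th to the 95th percentile. The differences of the members were 0.58 for Irgm1, 0.72 for Tgtp2, 0.91 for Igtp and 1.07 for both Irgm2 and Iigp1, and that of Tgtp1 was 0.83. With an edge of 5 steps the CC080F1 means were 0.01 for Irgm1, 0.02 for Igtp and −0.02 for Iigp1, so the lower edge of CC080F1 was lost for these genes. The CC075F1 means at 5 steps were 0.60, 0.81 and 0.99.

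Followed inwards step by step, Iigp1 in CC075F1 rose from 103 and 57.6 CPM in the outermost spots to 117 and 70.3 CPM at 2 steps. It then fell to 40.0 and 25.0 CPM at 13 or more steps. In CC080F1 it ran from 24.0 and 27.2 CPM in the outermost spots to 29.6 and 35.3 CPM at 13 or more steps, with a maximum of 30.2 and 44.6 CPM at 4 to 5 steps. In the deep interior the strain means of Iigp1 were 32.5 and 32.4 CPM, and the sections overlapped. Igtp went from 142 and 114 CPM to 56.7 and 59.1 CPM in CC075F1, and from 31.4 and 51.7 CPM to 37.3 and 55.9 CPM in CC080F1.

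The CC075F1 sections exceeded those of CC080F1 without overlap in 7 of 7 distance bins for Igtp, 6 of 7 for Irgm1, 5 of 7 for Iigp1 and 2 of 7 for Irgm2. How many of all genes do so in a bin was not counted. Over whole sections, 6.63% of the genes tested did so in CPM. The bins share the same sections, and the outer bins hold the edge spots by which the family was chosen. Nothing is therefore read from these bin counts. In the 13-step bin the CC075F1 mean was 1.24 times that of CC080F1 for Igtp, 1.001 times for Iigp1, 0.821 times for Irgm1 and 0.720 times for Irgm2. In the outermost bin these ratios were 3.08, 3.15, 1.73 and 2.41. Only 177 spots of CC080F1 replicate 1 lay 13 or more steps inside, against 797 to 1142 in the other sections. With TMM factors, summed interior spots gave log2 strain fold changes of 0.53 for Irgm1, 0.32 for Irgm2, 1.00 for Igtp and 0.82 for Iigp1. In that fit edgeR called 0 of the 6 genes, and 18 of all 15195 tested.

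**Figure D4:**
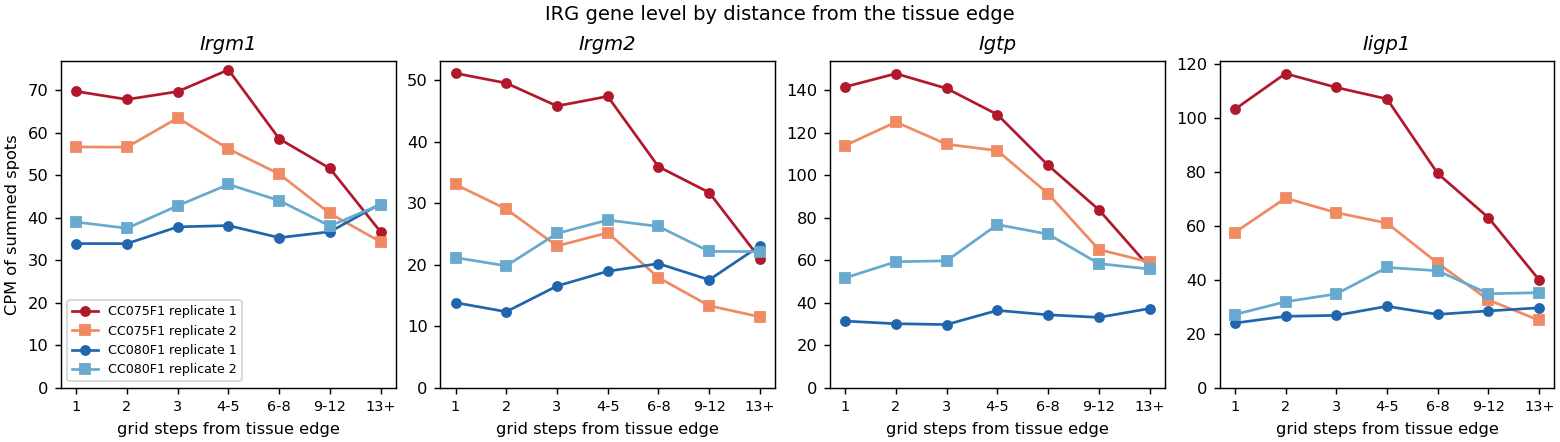
CPM of summed spots (vertical axis, each gene on its own scale) by distance from the nearest off-tissue position in grid steps, for the 4 well covered genes, 1 line per section. In CC075F1 the lines end lower at 13 or more steps than in the outermost spots. At 13 or more steps, in CPM without TMM factors, the strains overlap for Iigp1. In that bin both CC075F1 sections lie below both CC080F1 sections for Irgm1 and Irgm2 and above them for Igtp.

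Among 13 other IFN-γ-induced genes, the edge exceeded the interior in both CC075F1 sections for 12 and was below it in both CC080F1 sections for 7, and 6 of the 13 had both patterns, as the IRG genes had. The log2 edge ratios of Cxcl9, which encodes a T cell attracting chemokine, were 0.73 and 0.55 in CC075F1 against −0.34 and −0.10 in CC080F1. Those of the guanylate-binding protein gene Gbp2 were 0.54 and 0.48 against −0.43 and −0.15. Ifng itself had ratios of 0.48 and 0.82 against −0.21 and −0.43, on 12 and 13 edge UMIs in CC080F1, and 3 of its 4 counting intervals included 0.

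Some cell type markers differed at the edge in the same direction as the IRG genes, and others did not. The 6 macrophage markers, all detected in every section, summed to 940 to 1068 CPM per section in CC075F1 and 843 to 887 CPM in CC080F1, with edge log2 ratios of 0.14 and 0.48 against −0.13 and −0.06. The 3 markers of type 1 dendritic cells, also all detected, summed to 8.24 to 11.5 CPM and 3.65 to 4.55 CPM, with edge ratios of 0.50 and 0.70 against −0.57 and −0.05. The 4 endothelial markers, all detected, summed to 39.7 to 52.8 CPM and 64.5 to 99.1 CPM and were higher at the edge in all 4 sections (1.03 and 1.00 against 0.12 and 0.41). The 6 T and NK cell markers, all detected, summed to 54.4 to 55.2 CPM and 15.2 to 22.2 CPM, with edge ratios of 0.30 and 0.48 against −0.19 and 0.36. Neutrophil markers, at 4.82 to 6.77 CPM per section, were higher at the edge in all 4 sections (1.06 and 1.92 against 0.49 and 1.25), as were those of adipocytes (1.53 and 1.22 against 0.13 and 1.61) and epithelium (2.19 and 1.53 against 0.53 and 1.46). Fibroblast markers differed between replicates, with −0.29 and 1.18 against −0.15 and 0.12, and so did those of erythrocytes, with 1.48 and −0.995 against 1.48 and 3.71. Markers of B cells (−0.14 to 0.11) and keratinocytes (−0.25 to 0.05) differed little and in both directions. Their part in the IRG gradient was not tested.

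Depth and section geometry also differed at the edge. The median edge spot held 18036 and 25171 UMIs in CC075F1 against 30120 and 26854.5 in CC080F1, against interior medians of 33591.5 and 46146 and of 34844 and 37003. At the rim of the grid there were 25 and 1 tissue spots in CC075F1 against 75 and 58 in CC080F1. Skeletal muscle markers had a log2 edge ratio of 6.07 in CC075F1 replicate 2. In spots that held 10000 or more UMIs and no skin, muscle or fat signal, the strain difference of the Iigp1 edge ratio was 1.08, as large as with all spots. From the outer tissue boundary alone, with holes inside the tissue disregarded, it was 1.03.

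Across spots the 4 well covered genes varied together. Within each section, Pearson correlations were taken on log2(10000 × UMIs / spot total + 1). The mean over the 6 pairs of Irgm1, Irgm2, Igtp and Iigp1 was 0.295 and 0.421 in CC075F1 against 0.253 and 0.357 in CC080F1. Igtp and Iigp1, a regulator and an effector on different chromosomes, had the highest mean correlation, with 0.385 and 0.551 in CC075F1 against 0.33 and 0.443 in CC080F1. Irgm1 and Irgm2 had the lowest mean of these pairs, 0.249. Spots of a section share a library and differ in depth.

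At a few UMIs per spot, sampling noise bounds such values. Thinned to 5000 UMIs the mean over the 6 pairs was 0.0898. With each spot summed with its adjacent spots, a setting chosen after seeing the data, it was 0.640. Given spot depth as a covariate it was 0.331 as before. The 9 pairs that hold Tgtp1 or Tgtp2 averaged 0.0865. In single spots all 4 well covered genes were detected together in 34.0% and 27.3% of CC075F1 spots and 14.4% and 25.4% of CC080F1 spots. None of the 4 was detected in 3.25% and 3.45% against 8.04% and 6.55%. These shares depend on spot depth. Thinned to 5000 UMIs, all 4 were found together in 1.06% and 0.369% of CC075F1 spots against 0.289% and 0.48% of CC080F1 spots, so the strains overlapped. None was found in 31.7% and 49.0% against 58.9% and 49.5% of the thinned spots.

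Ranked over 9061 genes with a mean of at least 0.2 UMIs per spot in every section, the genes outside the family most like each member were few and recurrent. For Igtp they were Gbp2 (mean correlation 0.436), Cxcl10 (0.434) and Cxcl9 (0.428), and for Iigp1 they were Cxcl9 (0.453), Cxcl10 (0.428) and Gbp2 (0.407). Irgm1 had Cxcl10 (0.322), Gbp2 (0.306) and Cxcl9 (0.297), and Irgm2 had Cxcl10 (0.306) and Cxcl9 (0.299). Cxcl9 and Cxcl10 also led for Tgtp1 and Tgtp2, at 0.0926 to 0.136. The median gene had a mean correlation of 0.0151 or less with each of the 6. The correlation of Iigp1 with the summed macrophage markers was 0.0925 and 0.382 in CC075F1 against 0.153 and 0.233 in CC080F1, and with the endothelial markers it was 0.242 and 0.261 against 0.113 and 0.169. With the epithelial markers the highest correlation of the 4 well covered genes in any section was 0.0866. These markers summed to only 0.860 to 2.64 CPM per section, where few spots can hold a UMI. Low values are bounded by that sparsity, and nothing about tumor cells is read from them.

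Clustering of like values among adjacent spots was measured by Moran's I, which is near 0 for a random arrangement. Igtp had 0.264 and 0.387 in CC075F1 against 0.123 and 0.257 in CC080F1, and Iigp1 had 0.241 and 0.343 against 0.223 and 0.237. For both genes the CC075F1 sections were above the CC080F1 sections by a small margin (exact permutation p = 0.33 for each). Irgm1 (0.136 and 0.245 against 0.105 and 0.140) and Irgm2 (0.130 and 0.215 against 0.124 and 0.157) overlapped between the strains. Thinned to 5000 UMIs, Irgm1 did not overlap (0.0487 and 0.0413 against 0.0232 and 0.0323). Values of Tgtp1 and Tgtp2 were 0.0262 or less in every section, where few spots held a UMI. Those of Tgtp2 did not overlap either (0.0262 and 0.0255 against −0.00456 and 0.0118). How often Moran's I of all genes fails to overlap was not counted, so nothing is read from which genes did.

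IFN-γ is the ligand that induces these genes, so their level was measured around spots with an Ifng UMI, of which there were 190 and 260 in CC075F1 against 41 and 85 in CC080F1. In the spots with Ifng, Iigp1 had 78.0 and 61.7 CPM in CC075F1 against 64.2 and 25.1 CPM at 4 or more steps, and 27.3 and 59.9 CPM in CC080F1 against 26.9 and 29.8 CPM. In adjacent spots the log2 ratio to the distant spots was 0.16 and 0.83 in CC075F1 against 0.24 and 0.64 in CC080F1. For Igtp the adjacent-spot ratios were 0.28 and 0.69 against 0.06 and 0.47. The difference between replicates was greater than that between strains (exact permutation p = 1.0 for Iigp1 and 0.667 for Igtp).

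Adjacent to Ifng spots, Igtp, Iigp1 and Tgtp2 were above the distant spots in 4 of 4 sections, Irgm1 and Irgm2 in 3 of 4, with CC080F1 replicate 1 as the exception (log2 ratios −0.03 and −0.02), and Tgtp1 in 2 of 4. From the Ifng spots outwards, Iigp1 in CC075F1 replicate 2 went from 61.7 CPM over 44.5 and 36.1 to 29.4 CPM at 3 steps, and in CC080F1 replicate 2 from 59.9 CPM over 46.3 and 40.7 to 38.8 CPM. The decline was smaller in CC075F1 replicate 1, from 78.0 CPM over 71.8 and 69.2 to 63.6 CPM. In CC080F1 replicate 1 the adjacent spots were highest, with 27.3, 31.7, 28.8 and 27.9 CPM from 0 to 3 steps. The distant spots numbered 230 and 331 in CC075F1 against 1603 and 1478 in CC080F1. They were shallower than adjacent spots (25853 against 31708 UMIs in CC075F1 replicate 1), and within strata of spot depth the mean ratios of Iigp1 in adjacent spots were 0.46 in CC075F1 and 0.39 in CC080F1. Against all spots without an Ifng UMI, in place of the distant ones, these means were 0.17 and 0.27, and the median over the 4 well covered genes was 0.132 where the distant spots gave 0.342.

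**Figure D5:**
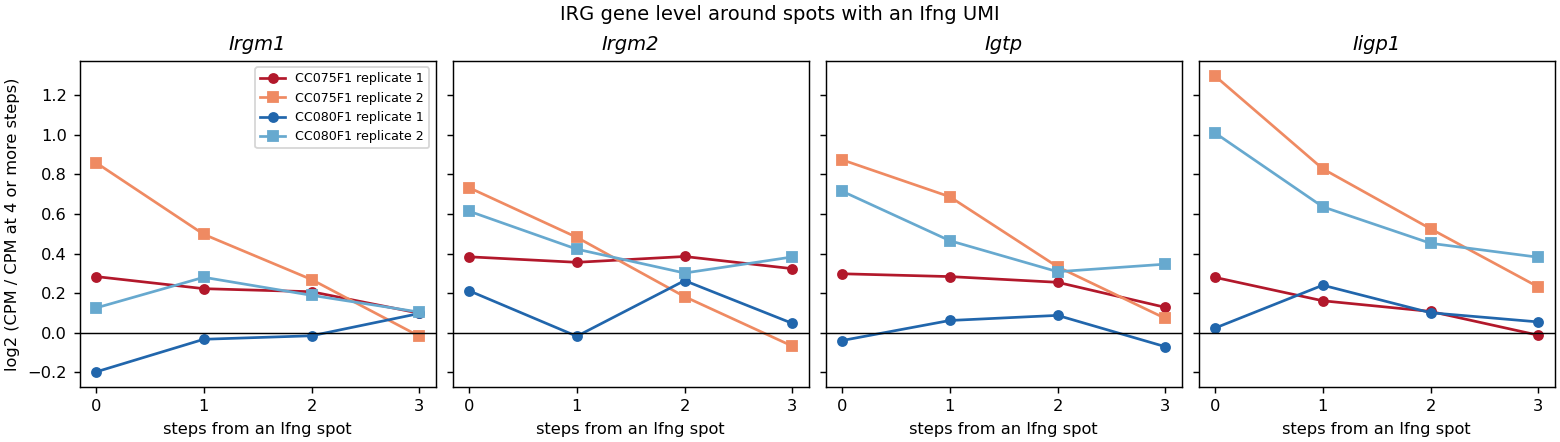
Log2 ratio of the CPM at 0, 1, 2 and 3 grid steps from the nearest spot with an Ifng UMI to the CPM at 4 or more steps, for 4 genes, 1 line per section. The second replicate of each strain shows the steepest decline for Iigp1, and CC080F1 replicate 1 stays near 0 for Irgm1 and Igtp.

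Of 10 further genes of the family or its clusters, 9 were in the tables under these symbols, 8 were tested and edgeR called 0. Their median log2 fold change was 0.29, with 2 at an unadjusted p under 0.05. Of 15 genes for the ligand, receptors and signalling, 0 passed and 3 had an unadjusted p under 0.05, with a median of 0.10. Among them Ifng had a log2 fold change of 2.06 (SE 0.46, edgeR adjusted p = 0.348), and Irf1, an early IFN-γ-induced transcription factor, had 0.29. Of 13 genes of the ubiquitin-like conjugation and ubiquitin machinery that places IRG proteins on membranes, 0 passed and 0 had an unadjusted p under 0.05 (median 0.11). DESeq2 counts for these lists were not made.

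Of 13 other IFN-γ-induced genes, 1 was called higher in CC075F1, 7 had an unadjusted p under 0.05 and all 13 had a positive fold change (median 0.74, against −0.02 for all genes). The called gene was Ido1, which encodes a tryptophan-degrading enzyme (log2 fold change 4.19, SE 0.35, edgeR adjusted p = 0.0181). Cxcl9 had 2.18 and Gbp2 0.68, neither called. The fold changes of the IRG members, 0.49 to 1.13, lay within the range of this list.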

How the data were processed

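The authors ran Space Ranger 1.3.1 (per the file headers) on mm10. Deposited values are UMI counts of each gene in each spot under tissue, and were not normalized. Reads were aligned to a C57BL/6J reference, while hosts carry a second, Collaborative Cross haplotype; its effect on the counts was not tested. Section depth was 82594649 to 146460975 UMIs, and intervals (95%, exact binomial or Poisson) cover counting error only.

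UMIs summed per section were fitted over 15572 genes in edgeR 4.0.16 (R 4.3.3; filterByExpr, TMM, quasi-likelihood, strain as the only term, Benjamini-Hochberg threshold 0.05), with DESeq2 1.42.0 and limma-voom 3.58.1 as alternatives. Section values were compared by two-sided exact permutation tests. Edge ratios, correlations, Moran's I and Ifng distances were computed in Python 3.11.15 with numpy 2.4.6 and scipy 1.17.1 on the deposited grid positions. Grid distances, the edge ratio, thinning, Moran's I and the edgeR fit were tested on simulated data. The sequence searches were not. Spot barcodes name positions only.

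Named genes were the 6 members, Ifng, Irf1, Cxcl9 and Gbp2, genes past the test in 4 lists (other family genes, signalling, conjugation and ubiquitin, other IFN-γ-induced genes), and the 3 non-members most correlated with each member; 1 gene that this rule names is not reported here. Members and lists were chosen with earlier results of these data known.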

Additional observations from a re-analysis of the deposited data

Results flagged for a closer look

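In the main setting, both CC075F1 sections were higher at the edge than in the interior and both CC080F1 sections lower, for each of the 6 genes. This pattern was also found for 11.7% of 12257 genes, and nothing is read from the members' count. Only Iigp1 kept these signs in every edge setting. With an edge of 5 steps, CC080F1 replicate 2 had log2 ratios of 0.05 for Irgm1 and 0.11 for Igtp. With the mean of spot CPM it had 0.02 for Irgm2. With an edge of 2 steps, CC075F1 replicate 2 had −0.06 for Tgtp2. The edge difference between the strains was not tested, because the family was picked out for it. The log2 edge to interior ratio of CC075F1 minus that of CC080F1 was 0.58 for Irgm1, 1.07 for Irgm2 (1.06987 before rounding), 0.91 for Igtp, 1.07 for Iigp1 (1.06684), 0.83 for Tgtp1 and 0.72 for Tgtp2. The value of Tgtp1 rests on 7 to 20 edge UMIs per section.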

How the results depend on the processing

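The count of IRG genes called between the strains, 0 of 6 in edgeR, was 2 with no filter on low counts, 1 with the DESeq2 Wald test and 0 to 1 as each section was left out. The fits called 14 genes in all in the main setting, 480 with no filter, 194 with DESeq2, 40 with library size alone and 11 to 207 as sections were left out. Labels give both strains replicates 1 and 2, but nothing shows that a number marks a shared mouse or batch, and the deviations of same-numbered sections had a correlation of 0.165 over genes. With the replicate number as a block, 2 of the 6 were called (Igtp, log2 fold change 1.21, adjusted p = 0.00839; Iigp1, 1.01, adjusted p = 0.0269) among 287 genes. All 6 fold changes stayed positive in each setting, from 0.25 (Irgm2) to 1.73 (Igtp).

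The strain difference of the Iigp1 edge ratio, 1.07, was 0.875 with the mean of spot CPM and 1.01 to 1.13 as sections were left out. The mean correlation of the 4 well covered genes, 0.331, was 0.0898 after thinning to 5000 UMIs and 0.640 with adjacent spots summed (chosen after seeing the data). Their median Moran's I, 0.207, was 0.0684 after thinning. The median log2 ratio of the 4 genes adjacent to Ifng spots, 0.342, was 0.132 against all spots without Ifng. Cd8a in place of Ifng gave no median over the 4 genes, because too few spots lay 4 or more steps from a Cd8a spot in CC075F1. Adjacent to Cd8a spots, the mean log2 ratios in CC075F1 were −0.27 (SD 1.12) for Irgm1, −0.23 (SD 0.84) for Igtp and 0.47 (SD 0.003) for Iigp1. In CC080F1 they were 0.31 (SD 0.10), 0.36 (SD 0.45) and 0.51 (SD 0.57). With 2 sections per strain, differences between tumors are known only as far as these pairs show them.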
